A study of Mus musculus with 11 samples.

Results

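A set of 5 transcripts that lay at 0 or far lower in haematopoietic progenitors of Phf6R274X Tg mice than in those of Phf6 knockout and wild-type mice is described here. They are the long non-coding RNAs 2610035D17Rik, 5830444B04Rik and 4930481A15Rik and the protein-coding genes Rab6b and Cmah. They were taken by symbol, 5 of the 55291 symbols in the count table, and all 5 were among the 17183 genes that passed the filter on low counts. They were selected on their measured levels in Tg beside wild type (WT) and knockout (KO), so the differences of Tg from both are given as a description, with no test. The choice also asked for expression in both KO and WT, so a transcript lost in KO could not have been a member, and the comparison of KO with WT is not independent of it. The choice set no numerical limit, and the name "nearly absent" holds for the 5 to different degrees: pooled over libraries, Tg held 0.39% of the WT level of 2610035D17Rik, 5.0% of Rab6b, 8.94% of 4930481A15Rik and 27.1% of Cmah, and not 1 read of 5830444B04Rik. Of the KO level it held 0.504%, 5.86%, 10.9% and 23.4% for the same 4 genes.

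The libraries came from Phf6R274X Tg mice (n = 4), Phf6 KO mice (n = 3) and WT mice (n = 4), all labelled C57BL/6. RNA of individual mice was taken from bone marrow cells that lacked lineage markers and carried cKit and Sca-1 (LSK), a sorted fraction that contains stem cells and multipotent progenitors, and was read in pairs of 150 bases. Phf6 encodes a nuclear protein with plant homeodomains, and R274X is a premature stop. The promoter that drives the Tg allele, the state of the endogenous Phf6 gene in Tg mice, and the age, sex and batch of the mice are given in none of the sources used here.

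Cmah encodes the hydroxylase that turns CMP-N-acetylneuraminic acid into CMP-N-glycolylneuraminic acid. It thereby sets which of these sialic acids mouse cells carry on their surface glycans, where Siglec receptors of blood cells read them; the human gene is inactive. Rab6b encodes a small GTPase of the Rab6 family, which directs vesicle traffic at the Golgi, and is known above all from neurons, while its paralogue Rab6a is expressed in most cells. Long non-coding RNAs are transcripts with no known protein product, and no role is assigned here to the 3 among the members.

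Library totals lay between 20990446 and 45632018 counts, which puts the limit allowed by an empty cell, 3 counts, at 0.0657 to 0.143 CPM (counts brought to one library size) per library, for counting error only. The 10 LSK identity genes (Kit, Ly6a, Cd34 and others) summed to 2540 to 2980 CPM in Tg, 2550 to 2760 CPM in KO and 2350 to 3320 CPM in WT, with none at 0. Phf6 read 182.5 to 277.5 CPM in Tg, 15.35 to 23.95 CPM in KO and 109.9 to 141.8 CPM in WT. The groups also differed in transcripts of the sex chromosomes. Xist, the RNA of the inactive X chromosome, lay between 0.0307 and 0.297 CPM of library totals in Tg, between 32.7 and 40.3 CPM in KO and between 50 and 53.8 CPM in WT. The Y-linked genes Ddx3y, Uty, Kdm5d and Eif2s3y summed to 49.9 to 367 CPM in Tg, 0.0329 to 114 CPM in KO and 0.0642 to 141 CPM in WT. KO replicate 1 and WT replicates 1, 2 and 4 held both Xist and over 10 CPM of Y-linked reads, and KO replicate 2 held 1.74 CPM of them. Xist and Y-linked reads in one library go against a label of individual mice, and low Xist and the Tg genotype cannot be told apart.

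2610035D17Rik is a lincRNA gene with 5 exon blocks on the minus strand (chr11:113043895-113201838, GRCm38, GENCODE M21). In Tg its counts were 7, 1, 1 and 0, or 0.175, 0.027, 0.0328 and 0 CPM. KO held 13.6, 8.94 and 15.6 CPM, and WT held 16.4, 12.6, 17.2 and 21.6 CPM. All 4 Tg libraries lay at or near the floor, and the lowest WT library stood 71.8-fold above the highest Tg library. Means were 0.0587 ± 0.0788 CPM in Tg (SD, n = 4), 12.7 ± 3.42 CPM in KO (n = 3) and 16.9 ± 3.71 CPM in WT (n = 4). The fitted log2 fold change was -7.98 (SE 0.513) against WT and -7.57 (SE 0.519) against KO, and Tg replicate 1 held 7 of the 9 Tg counts: without it these values were -9.47 and -9.06. In bulk RNA, fewer cells of a type that carries a transcript and less of that RNA per cell cannot be told apart, here and for each gene that follows.

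RefSeq (GRCm38.p6) gives start sites for 4 of the 5 members, and the 300 bases around each, 250 before and 50 after, are shown because all members are low in Tg together while lying on different chromosomes. Capitals mark matches, on either strand, to 6 short motifs. TATAAA, which the general transcription machinery reads, is found in 13.6% of all 32851 such promoters of RefSeq. The letters CCAAT are found in 37.4% of them, and the binding box of Sp1, GGGCGG, in 35.7%. Cores of 3 blood transcription factor families are CGGAAG for Ets proteins, in 16.9% of promoters, AGATAA for Gata proteins, in 11.2%, and TGTGGT for Runx proteins, in 16.8%. No match shown overlaps another. For 2610035D17Rik the window is chr11:113201789-113202088, minus strand:

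2610035D17Rik promoter: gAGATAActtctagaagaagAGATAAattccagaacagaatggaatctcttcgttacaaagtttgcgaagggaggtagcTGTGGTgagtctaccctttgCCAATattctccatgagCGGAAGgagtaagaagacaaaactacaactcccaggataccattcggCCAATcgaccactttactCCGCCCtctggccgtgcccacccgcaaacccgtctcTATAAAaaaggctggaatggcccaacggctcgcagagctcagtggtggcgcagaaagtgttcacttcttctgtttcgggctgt

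It held every one of these motifs: TATAAA lay at -33 from the start site, and CCAAT at -151 and -87. Further, GGGCGG lay on the other strand at -69 and CGGAAG at -134, while AGATAA lay at -249 and -230 and TGTGGT at -171. Its GC content was 49.3% with 13 CpG, against medians of 52.7% and 7 CpG over all promoters.

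5830444B04Rik (chr4:155398763-155421704, minus strand, 6 exon blocks, annotated as a processed transcript) had a count of 0 in each of the 4 Tg libraries. It held 5.48, 13.4 and 6 CPM in KO, or 251, 446 and 179 counts, and 10.3, 14.8, 7.39 and 11.1 CPM in WT, or 323, 483, 233 and 231 counts. Every KO and WT library thus had over 100 reads of a transcript of which no Tg library had any. Against 3 counts over the Tg group, Tg was at least 510-fold lower than WT and at least 376-fold lower than KO. KO averaged 8.29 ± 4.41 CPM (n = 3) and WT 10.9 ± 3.07 CPM (n = 4).

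4930481A15Rik (chr19:5406740-5422847, plus strand, 5 exon blocks) is annotated as antisense. Tg kept a low level in every library, 0.55, 0.674, 0.82 and 0.983 CPM, from 22 to 32 counts each. KO held 7.78, 6.87 and 5.19 CPM, and WT 11.5, 6.42, 5.48 and 10.7 CPM. The Tg libraries lay close together and below all others, the lowest WT library standing 5.58-fold and the lowest KO library 5.28-fold above the highest Tg library. Means were 0.757 ± 0.187 CPM in Tg, 6.61 ± 1.31 CPM in KO and 8.52 ± 3.01 CPM in WT, with a log2 fold change of -3.49 (SE 0.303) against WT and -3.13 (SE 0.31) against KO. Its RefSeq promoter window lies at chr19:5406565-5406864, plus strand:

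4930481A15Rik promoter: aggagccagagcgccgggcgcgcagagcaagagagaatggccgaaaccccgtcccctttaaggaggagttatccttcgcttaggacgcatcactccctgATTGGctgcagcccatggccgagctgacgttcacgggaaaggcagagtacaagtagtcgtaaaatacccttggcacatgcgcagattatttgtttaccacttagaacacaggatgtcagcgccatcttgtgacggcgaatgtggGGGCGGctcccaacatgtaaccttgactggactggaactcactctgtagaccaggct

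This window held GGGCGG at -7 and CCAAT on the other strand at -151, with 55.0% GC and 17 CpG.

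Rab6b (chr9:103111787-103185276, plus strand, 8 exon blocks) read 0.725, 0.431, 1.25 and 1.14 CPM in Tg, 15.2, 14.1 and 14.2 CPM in KO, and 20.2, 17, 13.4 and 18.3 CPM in WT. All Tg libraries were low and none came near the others: the lowest WT library was 10.8-fold and the lowest KO library 11.3-fold above the highest Tg library. Means were 0.885 ± 0.377 CPM in Tg, 14.5 ± 0.617 CPM in KO and 17.2 ± 2.83 CPM in WT, with log2 fold changes of -4.29 (SE 0.284) against WT and -4.05 (SE 0.29) against KO. Rab6a, the paralogue, was abundant in all groups. As CPM per kilobase of exon (RPKM), Rab6a had a level of 22.2 ± 3.83 in Tg, 19.1 ± 0.688 in KO and 18.1 ± 2.09 in WT, and on that scale Rab6b made up 0.396% to 1.4% of the sum of both in Tg, 12.9% to 13.3% in KO and 12.6% to 18.3% in WT. The pair was thus almost wholly Rab6a in Tg. The Rab6b promoter window, chr9:103111824-103112123, plus strand, is rich in GC:

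Rab6b promoter: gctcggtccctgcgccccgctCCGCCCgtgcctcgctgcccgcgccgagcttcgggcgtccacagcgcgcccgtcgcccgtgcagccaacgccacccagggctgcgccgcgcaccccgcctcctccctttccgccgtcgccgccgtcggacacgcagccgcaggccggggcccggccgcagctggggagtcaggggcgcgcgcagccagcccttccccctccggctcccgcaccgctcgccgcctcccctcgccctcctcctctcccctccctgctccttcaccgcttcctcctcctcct

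With 78.7% GC and 42 CpG it stood at percentiles 98.6 and 97.4 of all promoters, and its only match was GGGCGG on the other strand at -229.

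Cmah (chr13:24327404-24477377, plus strand, 20 exon blocks) was lower in Tg but far from absent, at 12.6, 9.16, 13.2 and 12.9 CPM from 340 to 506 counts. KO held 46.5, 59.5 and 47.6 CPM, and WT 57.7, 44.4, 28.7 and 45.6 CPM. Groups again did not overlap, but the gap was the narrowest of the 5, with WT replicate 3, the lowest of its group, 2.18-fold above the highest Tg library. Means were 12 ± 1.89 CPM in Tg, 51.2 ± 7.21 CPM in KO and 44.1 ± 11.9 CPM in WT, with log2 fold changes of -1.88 (SE 0.198) against WT and -2.1 (SE 0.209) against KO. RefSeq gives Cmah a pair of start sites, with windows at chr13:24327154-24327453 and chr13:24414872-24415171, both on the plus strand:

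Cmah promoter 1: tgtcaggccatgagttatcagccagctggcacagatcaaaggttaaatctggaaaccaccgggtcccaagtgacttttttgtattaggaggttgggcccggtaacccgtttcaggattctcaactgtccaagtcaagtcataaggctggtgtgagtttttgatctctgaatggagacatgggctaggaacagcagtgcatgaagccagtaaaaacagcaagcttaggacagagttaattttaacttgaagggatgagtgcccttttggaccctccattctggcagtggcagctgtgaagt
Cmah promoter 2: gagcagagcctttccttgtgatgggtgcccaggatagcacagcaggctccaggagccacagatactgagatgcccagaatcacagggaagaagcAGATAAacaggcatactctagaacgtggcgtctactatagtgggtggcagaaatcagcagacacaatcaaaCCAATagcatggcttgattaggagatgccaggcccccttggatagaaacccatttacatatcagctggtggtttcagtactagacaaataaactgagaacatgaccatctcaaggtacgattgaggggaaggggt

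The upstream window held none of the motifs, and the downstream one held CCAAT at -85 and AGATAA at -156; each had 3 CpG. Gene counts do not say which start site was used.

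**Figure D1:**
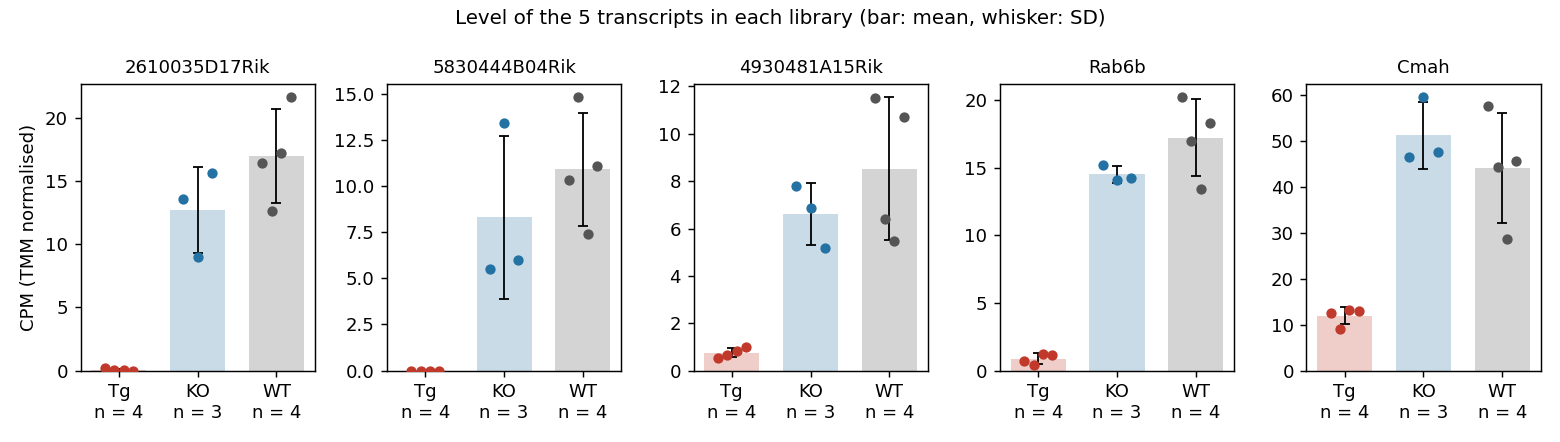
Level of each transcript (y axis, TMM-normalised CPM, its own scale in each panel) in Tg (n = 4), KO (n = 3) and WT (n = 4); points are libraries, bars means and whiskers SD. For each of the 5 the Tg points lie below all KO and WT points, at 0 for 5830444B04Rik and at 9.16 to 13.2 CPM for Cmah.

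Per length the order of the 5 changed between the groups. In Tg, Cmah led at 1.12 ± 0.177 RPKM, before 4930481A15Rik at 0.338 ± 0.0834, Rab6b at 0.176 ± 0.0748, 2610035D17Rik at 0.0277 ± 0.0372 and 5830444B04Rik at 0, the last pair not apart beyond the SD. In KO, 2610035D17Rik was highest at 6 ± 1.61 RPKM, followed by Cmah at 4.81 ± 0.676, 4930481A15Rik at 2.95 ± 0.585, Rab6b at 2.89 ± 0.123 and 5830444B04Rik at 1.53 ± 0.816. In WT the order was that of KO, with 7.98 ± 1.75, 4.14 ± 1.11, 3.8 ± 1.34, 3.42 ± 0.563 and 2.01 ± 0.568 RPKM; Cmah, 4930481A15Rik and Rab6b lay within their SDs of each other in WT, and the last 2 of these in KO. In KO the levels of 2610035D17Rik and Cmah also lay within their SDs of each other. Coefficients of variation ran from 4.25% for Rab6b to 53.3% for 5830444B04Rik in KO, and from 16.4% for Rab6b to 35.3% for 4930481A15Rik in WT. Genes of similar level (5 to 50 CPM in WT, 6148 genes) had medians of 8.98% in KO and 14.2% in WT.

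Over all genes tested, 5.34% had Tg below WT with no overlap between groups, 11% had Tg below KO with none, and 3.58% had Tg below both, where all 5 members lie by the choice made. Of 10644 genes with means of at least 5 CPM in both WT and KO, 8 had no count in Tg, 15 had under 1% of both means, 54 under 15% and 99 under 30%. The 15 under 1% comprised 2610035D17Rik, 5830444B04Rik, 9 immunoglobulin genes, Xist, Ifi44l, Gbp2b and Gm45315. Ifi44l averaged 0, 43.1 and 33.7 CPM in Tg, KO and WT, Gbp2b 0.0614, 16.8 and 9.62 CPM, and Gm45315 0, 34.8 and 17.6 CPM. On a scale of log2(CPM + 0.5), 28 of 13441 genes with at least 1 CPM in WT and KO had Tg below every other library and at least 2 lower in mean than each group. They lay on 13 chromosomes, 16 were immunoglobulin genes, and 4 were members, with Cmah just outside at -1.81 against WT and -2.06 against KO; just inside lay Myl10, a myosin light chain gene, at -2 and -2.3. The largest of these differences from WT besides the members were those of Xist at -6.32, Igkv12-44 at -5.61, Ighv11-2 at -5.47, Iglv1 at -4.57 and Igkv6-23 at -3.66. 2610035D17Rik stood at -4.95, 5830444B04Rik at -4.47, Rab6b at -3.71 and 4930481A15Rik at -2.79.

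**Figure D2:**
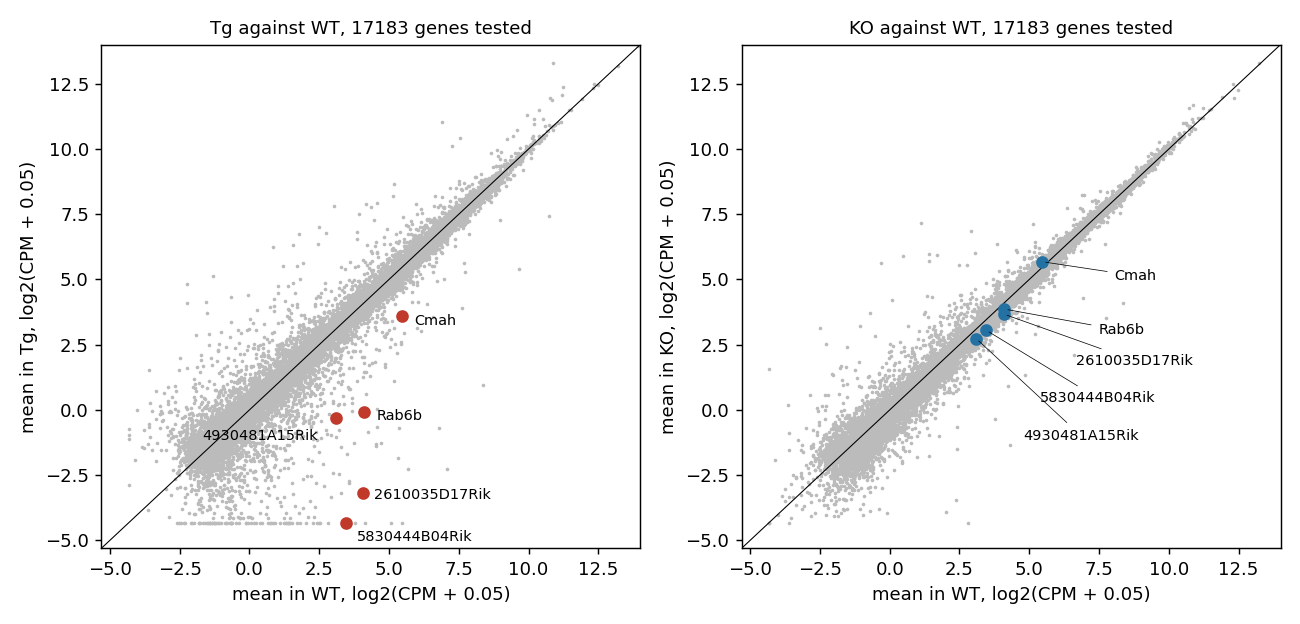
Mean level of the 17183 genes tested, log2(CPM + 0.05) on both axes, in Tg (left panel) and KO (right panel) against WT; grey points are genes, the line marks equality and coloured points are the 5 transcripts. The 5 lie below the line in Tg, 5830444B04Rik at the lower edge where a mean of 0 falls, and beside it in KO.

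KO was compared with WT within the limit the choice sets: all 5 had to be expressed in both groups, so that no strong fall in KO could have been found here, and nothing on the loss of Phf6 is read from these values. None of the 5 was called by edgeR's quasi-likelihood test at an adjusted p of 0.05, where 0.0233% of all genes (4) were, and none had an unadjusted p under 0.05, where 7.09% did; DESeq2 and limma-voom called none either. The 3 non-coding RNAs and Rab6b had means below WT, and Cmah a mean above it, with all groups overlapping. The log2 fold change of KO over WT was -0.41 for 2610035D17Rik (SE 0.356, 95% interval -1.19 to 0.37, adjusted p = 0.846 by edgeR). It was -0.39 for 5830444B04Rik (-1.22 to 0.43, adjusted p = 0.858) and -0.36 for 4930481A15Rik (-1 to 0.27, adjusted p = 0.837). For Rab6b it was -0.25 (-0.81 to 0.32, adjusted p = 0.88) and for Cmah 0.22 (-0.23 to 0.67, adjusted p = 0.862). These intervals do not show that KO and WT were alike: they reach a difference of about 1 on the log2 scale for each non-coding RNA. Over all alternatives and left-out libraries the lowest adjusted p of any member was 0.504. Without the libraries holding both Xist and over 10 CPM of Y-linked reads, which leaves 2 KO libraries and 1 WT library, the sign turned for 5830444B04Rik (0.41), 4930481A15Rik (0.15) and Rab6b (0.09), each with an adjusted p of 1 by edgeR, and Cmah had 0.92 (adjusted p = 0.613).

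**Figure D3:**
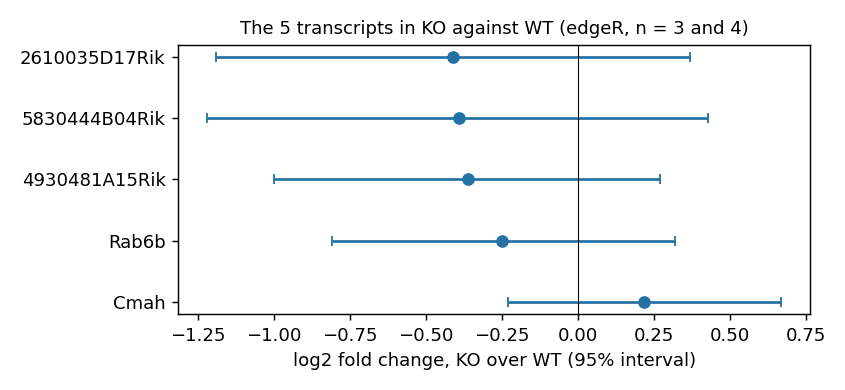
Log2 fold change of KO (n = 3) over WT (n = 4) on the x axis for each transcript, as points with 95% intervals from the edgeR fit; the vertical line marks no difference. Every interval includes 0, with Cmah the only point on the positive side.

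Markers of other cell types also differed between Tg and WT by edgeR's test, where 2.54% of all genes were called higher and 2.39% lower. Unadjusted p-values under 0.05 by edgeR were held by 10 B cell, 8 granulocyte-monocyte progenitor and 9 tissue macrophage markers, of 10 each. They were held by 6 T and NK cell and 6 erythroid markers, also of 10 each, and by 22.1% of all genes. Of 10 B cell markers 0 rose and 2 fell in Tg against WT, their sums being 207 to 324 CPM in Tg, 1490 to 6210 CPM in KO and 348 to 5200 CPM in WT. Of 10 granulocyte-monocyte progenitor markers 7 rose and 0 fell, with sums of 6370 to 26800 CPM in Tg, 5300 to 6610 CPM in KO and 2380 to 5220 CPM in WT. Of 10 tissue macrophage markers 5 fell (27.5 to 128 CPM in Tg, 46.5 to 179 CPM in KO, 56 to 273 CPM in WT), of 10 T and NK cell markers 1 rose and 3 fell (128 to 265, 99.7 to 116 and 95.9 to 123 CPM), and of 10 erythroid markers 2 fell (195 to 400, 391 to 420 and 332 to 626 CPM). No marker of these lists was at 0 in any group. The megakaryocyte list (395 to 668, 198 to 311 and 289 to 435 CPM) and the stroma and endothelium list (162 to 238, 224 to 232 and 216 to 240 CPM), in which Bglap was at 0 in Tg and WT, had 0 calls among 8 genes tested each in edgeR (2 at an unadjusted p under 0.05 in each by limma-voom and DESeq2, with DESeq2 calling 2 megakaryocyte genes higher and 1 stromal gene lower). WT replicate 3, whose B cell sum of 348 CPM was close to the highest Tg sum, held 17.2 CPM of 2610035D17Rik, 7.39 of 5830444B04Rik, 5.48 of 4930481A15Rik, 13.4 of Rab6b and 28.7 of Cmah, all above Tg; for the last 4 it was the lowest WT library. This is a single library, and the part of these lists, the B cell list included, in the members' levels was not tested.

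The members were also read by sex-linked transcripts. All KO and WT libraries held Xist, at 32.7 to 53.8 CPM of library totals, so none was like Tg in this. A split of them by Y-linked reads therefore cannot show whether the members go with Xist or with sex. WT replicate 3 and KO replicate 3, which held Xist and at most 0.0642 CPM of Y-linked reads, and the 5 other KO and WT libraries, with Y-linked reads, gave overlapping ranges for 2610035D17Rik (15.6 to 17.2 and 8.94 to 21.6 CPM). For 5830444B04Rik they held 6 to 7.39 and 5.48 to 14.8 CPM, for Rab6b 13.4 to 14.2 and 14.1 to 20.2 CPM, and for Cmah 28.7 to 47.6 and 44.4 to 59.5 CPM. For 4930481A15Rik they did not overlap, at 5.19 to 5.48 CPM without and 6.42 to 11.5 CPM with Y-linked reads. That is 2 libraries against 5, and the share of all genes that separate in this split was not computed. No difference of 4930481A15Rik by Y-linked reads is therefore read from it. With WT replicate 3 as the only WT library, left after removing those with both Xist and over 10 CPM of Y-linked reads, the log2 fold change of Tg over WT was -2.85 for 4930481A15Rik, -3.92 for Rab6b and -1.25 for Cmah, and the bound for 5830444B04Rik was -8.43.

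Each member lies on a chromosome of its own, so their surroundings were read next, as position was not used in choosing them. Of the 50 nearest tested genes, 5 on either side of each member, edgeR called 2 higher and 3 lower in Tg against WT, 10% beside 4.92% of all genes (2.54% higher, 2.39% lower). In Tg against KO it called 2 higher and 1 lower, 6% beside 5.69% (2.63% higher, 3.06% lower). In KO against WT it called 0, beside 0.0233% of all genes. An unadjusted p under 0.05 by edgeR was held by 4 of the 50 neighbours and by 7.09% of all genes. DESeq2 and limma-voom called 0 neighbours as well. With 10 genes on either side the Tg against WT count was 4 higher and 3 lower of 100, or 7%. The count of 5 depended on single libraries: it was 1 without Tg replicate 2, 2 without Tg replicate 1, KO replicate 2 or WT replicates 1 or 2, 3 without Tg replicate 4 or KO replicates 1 or 3, and 9 without Tg replicate 3. With WT replicate 3 as the only WT library (the others hold Xist and Y-linked reads together) it was 0. The 45 neighbours that were not called had log2 fold changes by edgeR of -1.50 to 1.79 with a median of 0.07 (0.01 over all genes).

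The 3 neighbours that fell all lay inside or beside a member. Gabrd, a GABA-A receptor subunit gene 0.7 kb from 5830444B04Rik on its strand (chr4:155384980-155398112), had no count in Tg, 0.59, 0.63 and 0 CPM in KO and 0.159, 0.676, 0.856 and 0.671 CPM in WT. Tg was at least 27.3-fold lower than WT (adjusted p = 0.04 by edgeR; up to 0.1, without Tg replicate 1, and lost without any library but KO replicate 3), while KO replicate 3 was at 0 like Tg. Cfap74, a gene of cilia and flagella on the opposite strand that shares 453 exonic bases with 5830444B04Rik, read 0, 0.027, 0.0656 and 0.154 CPM in Tg, 0.393, 0.99 and 0.335 CPM in KO and 1.27, 2.95, 0.444 and 1.15 CPM in WT. It fell by 4.55 on the log2 scale against WT (SE 0.841, adjusted p = 0.0163 by edgeR; 0.0505 without Tg replicate 2). Gm37166, a predicted model inside the Rab6b gene on its strand that shares no exon with it (chr9:103120368-103122841), had 1 count in Tg, 50 in KO and 81 in WT. It fell by 6.00 against WT (SE 0.689, adjusted p = 0.00166 by edgeR) and fell by 5.43 against KO (SE 0.717, adjusted p = 0.00262), and stayed called with any single library left out. With limma-voom the calls of Gabrd and Cfap74 against WT were lost. The strand setting of the counting is not given in the sources used here, so reads of 5830444B04Rik and Cfap74 where they overlap cannot be told apart, nor can reads of Rab6b introns and of Gm37166. Gabrd lies on the strand of 5830444B04Rik, 0.7 kb past the end of that gene. Reads of a transcript that runs past that end into Gabrd cannot be told apart from those of Gabrd itself.

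The other neighbours named were higher or were not called. Abca5, an ABC transporter gene 2706.2 kb from 2610035D17Rik, rose by 0.76 (SE 0.176, adjusted p = 0.0342 by edgeR), at 8.95 ± 1.52 CPM in Tg, 4.59 ± 0.646 CPM in KO and 5.28 ± 0.793 CPM in WT. Nadk, the NAD kinase gene 140.7 kb from 5830444B04Rik, rose by 0.44 (SE 0.104, adjusted p = 0.0378), at 118 ± 12.8 CPM in Tg, 100 ± 6.03 CPM in KO and 87.6 ± 11.3 CPM in WT. Both calls rested on the full set of libraries: that of Abca5 was lost without any library but Tg replicate 3 or KO replicate 1 (adjusted p up to 0.0964, without Tg replicate 1), and that of Nadk without any but Tg replicates 3 and 4 and WT replicate 3 (up to 0.118, without Tg replicate 1). Both were also lost when only Tg and WT were fitted. Ski, a co-repressor of TGF-beta signalling, was higher in Tg than in KO (76.5 and 56.9 CPM; adjusted p = 0.019 by edgeR). Drap1, which shares 43 exonic bases with 4930481A15Rik on the other strand, stood at 79.2 ± 10.7 CPM in Tg, 79.8 ± 0.767 CPM in KO and 66.3 ± 10.4 CPM in WT (Tg against WT 0.26, SE 0.118, adjusted p = 0.229). Gm11342, antisense within Cmah and sharing no exon with it, had a value of -1.50 (SE 0.654, adjusted p = 0.207) for Tg against WT.

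**Figure D4:**
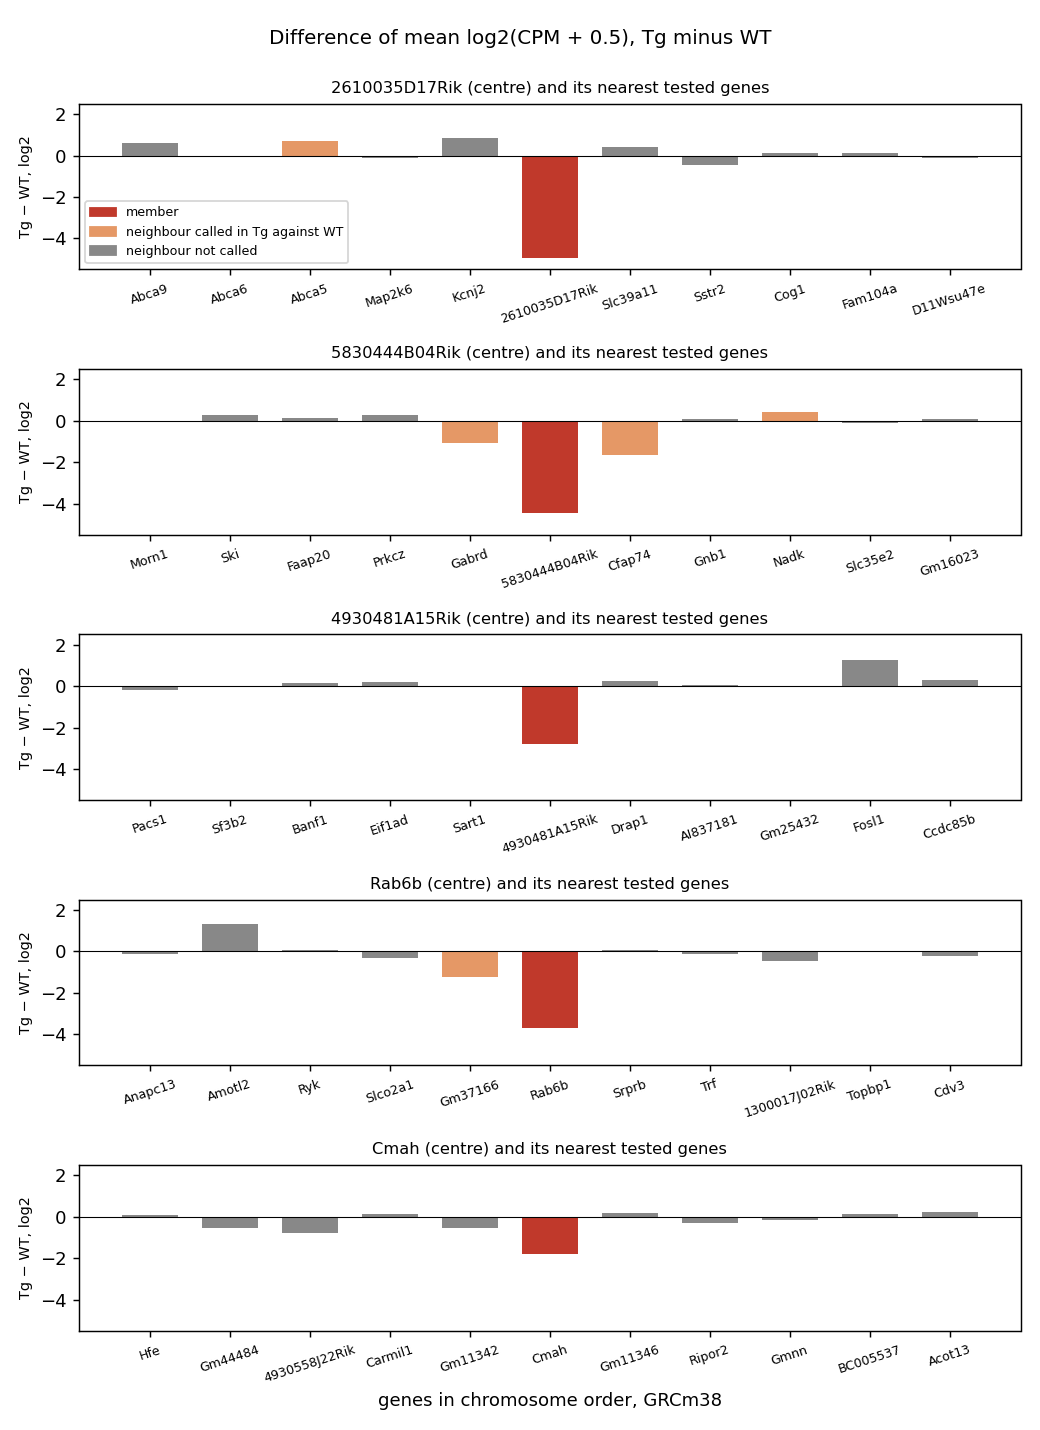
Difference of mean log2(CPM + 0.5), Tg minus WT, for each transcript (red) and its 5 nearest tested genes on either side in chromosome order (orange where called by edgeR, grey where not). On this scale the red bars, from -4.95 to -1.81, are longer than those of all neighbours. The orange bars beside 5830444B04Rik (Gabrd and Cfap74) and Rab6b (Gm37166) point down. The added 0.5 CPM shortens the bars of genes with few reads, such as Gabrd, Cfap74 and Gm37166. Their edgeR log2 fold changes against WT were more negative than those of 4930481A15Rik, Rab6b and Cmah, so bar lengths do not rank these falls.

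The genes that work with Cmah were read from a list of sialic acid enzymes and receptors. Of 7 genes of sialic acid synthesis and activation besides Cmah, 0 were called in Tg against WT, with 1 at an unadjusted p under 0.05 and a median log2 fold change of 0.13 (0.01 over all genes). Cmas, which makes the CMP-sialic acid that Cmah modifies, stood at 99.3 CPM in Tg, 107 CPM in KO and 104 CPM in WT (-0.07, SE 0.053, adjusted p = 0.468 by edgeR). Gne, the first enzyme of the pathway, stood at 59.2, 59.9 and 55.7 CPM in the same order (0.09, SE 0.073, adjusted p = 0.536). Slc17a5, the lysosomal sialic acid exporter, had a value of 0.35 against WT (adjusted p = 0.0736) and rose against KO (0.55, SE 0.111, adjusted p = 0.019). DESeq2 called 1 gene of the list higher in Tg against WT and limma-voom 0.

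Of 15 sialyltransferase genes tested, 1 rose and 1 fell in Tg against WT, beside 4.92% of all genes called. An unadjusted p under 0.05 was found for 7 of the 15 and for 22.1% of all genes. St6gal1, which adds the alpha-2,6-linked sialic acid that the Siglec CD22 binds, read 4.82, 5.44, 11.4 and 11.6 CPM in Tg, 21.5, 13.1 and 19 CPM in KO and 19.4, 37, 11.4 and 24.4 CPM in WT. It fell by 1.48 (SE 0.38, adjusted p = 0.0491 by edgeR), although WT replicate 3 lay at the level of the upper Tg libraries. St6galnac4, a transferase for O-linked glycans, rose by 0.57 (SE 0.144, adjusted p = 0.0476), at 90, 70.3 and 60.8 CPM in Tg, KO and WT. St3gal6, for alpha-2,3 linkages, had a value of -1.70 (SE 0.453, adjusted p = 0.0548). Of 2 sialidase genes none was called in edgeR (1 at an unadjusted p under 0.05), with Neu1, the lysosomal sialidase, at 0.85 (adjusted p = 0.106); DESeq2 called 1 higher and limma-voom 0.

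Of 10 genes of sialic acid binding lectins 1 rose and 0 fell. Siglece, an inhibitory Siglec of myeloid cells, read 7.85, 9.84, 3.15 and 4.64 CPM in Tg, 1.77, 3.78 and 2.48 CPM in KO and 1.91, 0.922, 1.71 and 2.2 CPM in WT. It rose by 1.92 (SE 0.4, adjusted p = 0.0241 by edgeR), with all Tg libraries above all WT libraries. Cd22, a B cell Siglec, had a value of -1.80 against WT (adjusted p = 0.0927) and fell by 2.84 against KO (SE 0.592, adjusted p = 0.0212), and Siglec1 of macrophages had a value of -2.67 against WT (adjusted p = 0.138). These lists and those of Rab6 had 7, 15, 2, 10, 10 and 18 genes tested, and 4.92% of all genes were called. Together the lists held 3 calls in Tg against WT. That count was 0 without Tg replicate 1 or WT replicates 1 or 2, 1 without Tg replicate 2, any KO replicate or WT replicate 4, and 7 without WT replicate 3. The call of Siglece was lost without Tg replicates 1 or 2 or WT replicates 1 or 2 (adjusted p up to 0.0745). Those of St6gal1 (up to 0.138) and St6galnac4 (up to 0.14) were each lost for 9 of the 11 libraries, the highest value being without Tg replicate 1. Both were also lost with library totals, with limma-voom and when only Tg and WT were fitted, and all 3 calls were lost with WT replicate 3 as the only WT library. Of the B cell, macrophage and granulocyte-monocyte marker sums given above, only those of B cells set Tg apart from both KO and WT. The T and NK cell sums also did so, on the higher side: 128 to 265 CPM in Tg, 99.7 to 116 in KO and 95.9 to 123 in WT. The granulocyte-monocyte sums of Tg overlapped those of KO, and the macrophage sums overlapped in all groups. The part of these marker lists in the genes named here was not tested.

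The Rab6 lists showed no call in Tg against WT. Of 10 other Rab6 family and regulator genes 0 were called by edgeR, 2 had an unadjusted p under 0.05, and the median log2 fold change was -0.10; DESeq2 called 1 lower and limma-voom 0. Rab6a itself read 86.5, 80.4, 65 and 99.4 CPM in Tg, 73.7, 68.6 and 71.3 CPM in KO and 74.2, 56.3, 68.8 and 70.6 CPM in WT (0.30, SE 0.122, adjusted p = 0.182), its groups overlapping. Gdi2, a GDP dissociation inhibitor that recycles Rab proteins, had a value of -0.17 (adjusted p = 0.134). Of 18 genes of Rab6 effectors 0 were called and 1 had an unadjusted p under 0.05, with a median of 0.02, and DESeq2 and limma-voom called 0. The lowest p-values belonged to Vps53, of the GARP tethering complex, at 0.22 (adjusted p = 0.15) and Dennd5a at -0.12 (adjusted p = 0.252). Against KO, Ocrl, an inositol 5-phosphatase, rose by 0.32 (SE 0.073, adjusted p = 0.0283). In KO against WT 0 genes of all 6 lists were called by edgeR, DESeq2 or limma-voom, where edgeR called 0.0233% of all genes. An unadjusted p under 0.05 by edgeR was held by 1 lectin and 1 effector, and by 7.09% of all genes.

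**Figure D5:**
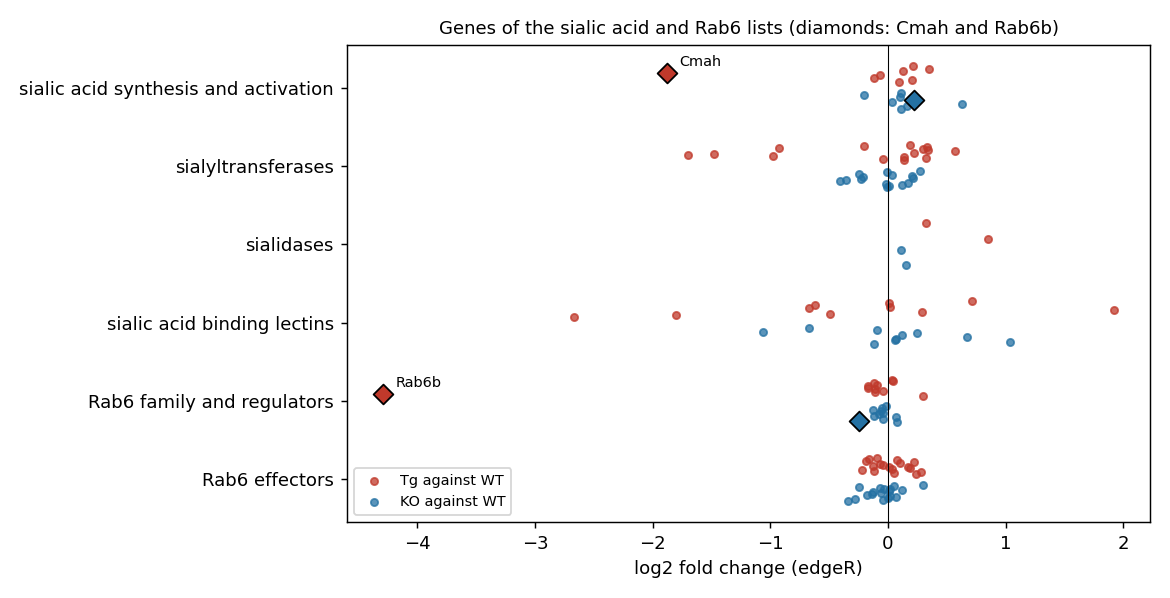
Log2 fold change (x axis, edgeR) of the tested genes of 6 lists (rows) in Tg against WT (red) and KO against WT (blue); diamonds are Cmah and Rab6b. Most points lie near 0, while the red diamonds lie at -1.88 for Cmah and -4.29 for Rab6b. Cmah is not set apart from all genes of the sialic acid lists. Among the red points Siglec1 lies at -2.67, Cd22 at -1.80 and St3gal6 at -1.70, and Siglece lies at 1.92.

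Genes most like each member were those with the highest Pearson r of log2(CPM + 0.5) over the 11 libraries among 12488 genes, members and predicted models left out. As the 4 Tg libraries are low by choice, any gene that differs in Tg scores high, so r over the 7 KO and WT libraries is given beside it, as a description. For 2610035D17Rik they included Xist (r = 0.993; 0.55 over the 7) and Pink1, a mitochondrial kinase (0.979; 0.66). For 5830444B04Rik they were Xist (0.985; 0.51), the aldo-keto reductase gene Akr1e1 (0.968; 0.53) and Smim7 (0.967; 0.75). For 4930481A15Rik they were Pink1 (0.98; 0.73), Add1 of the membrane skeleton (0.968; 0.67) and Xist (0.964; 0.21). For Rab6b they were Xist (0.98; 0.39), Pink1 (0.967; 0.7) and the microtubule gene Ckap5 (0.959; 0.45). For Cmah they were Dntt, the terminal transferase of early lymphoid cells (0.972; 0.79), Notch1 (0.966; 0.81) and Add1 (0.964; 0.62).

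The size of the difference varied among these genes. Xist averaged 0.159, 37.9 and 51.2 CPM in Tg, KO and WT, a log2 fold change of -8.21 for Tg over WT, beside -7.98 for 2610035D17Rik. Pink1 averaged 51.3, 96.9 and 102 CPM in the same order, Akr1e1 7.11, 25.7 and 28 CPM, Dntt 157, 446 and 509 CPM, and Notch1 180, 294 and 271 CPM. Among the members themselves, r over the 7 KO and WT libraries ran from -0.74 (2610035D17Rik and Cmah) to 0.55 (2610035D17Rik and 5830444B04Rik). These libraries share a tissue, a sort and a sequencing protocol.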

How the data were processed

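A table of raw counts of reads by gene symbol, not normalised, was deposited by the authors. FastQC, Trimmomatic, STAR and HTSeq, with the build mm10, stand in the submitters' processing notes; the sources used here give no versions, annotation, strand setting or filters. Library kits were of the NEB Ultra RNA type, per the labels' protocols. All 11 libraries were fitted together in edgeR 4.0.16 (R 4.3.3) with TMM factors, filterByExpr and no covariate, and each contrast was tested with the quasi-likelihood test; a Benjamini-Hochberg adjusted p under 0.05 over all 17183 genes was a call. CPM use TMM factors (library totals for Xist and Y-linked values), and errors after ± are SD. The SE of an edgeR log2 fold change was derived as its absolute value over the square root of that test's F statistic. The 95% intervals used this SE and the t distribution. For the members in Tg the SE is a description and no test. RPKM use exon lengths of GENCODE M21, matched by symbol for 53186 symbols. Simulated counts with known changes were used to test the scripts.

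The members and the gene lists were chosen with earlier results of these data known. Genes named are the members, neighbours called or overlapping, list genes called in Tg against WT or with the lowest p, the 3 genes most like each member and the 5 largest other falls; 1 gene that this rule names is not reported here, and the list genes called only in Tg against KO were added after their values were seen. Alternatives were DESeq2 1.42.0, limma-voom (limma 3.58.1), other scaling, other filters (none; 2 CPM in 3 libraries), fits of only both groups, the replicate block, 10 neighbours on either side, each library left out, and removal of those where Xist and the Y-linked sum both passed 10 CPM; a limit of 1 CPM was added after the data were seen. No pair of libraries held the same counts. Promoters are RefSeq's (GRCm38.p6). Plots were made in Python 3.11.15 with matplotlib 3.10.9.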

Additional observations from a re-analysis of the deposited data

Results flagged for a closer look

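Of 44 sets of 4 libraries (1 gene in 1 group each), those with all values equal could not be tested. These were the Tg sets of 5830444B04Rik and Gabrd, at 0 throughout. In the rest, 3 values lay far from the others relative to their set's range. For normally distributed values chance gives such a value in about 1 in 20 sets. Sets with counts at the floor do not meet this condition, and a single read among values of 0 is always flagged. The number of flags is therefore not weighed against chance, and nothing beyond chance is read from the 3. Cmah in Tg replicate 2 stood at 9.16 CPM, against 12.6 to 13.2 CPM in the other Tg libraries, and was the lowest Cmah level of all 11 libraries. Gm37166 in Tg replicate 3 stood at 0.0328 CPM, a single read, with 0 in the other Tg libraries. Smim7, one of the genes most like 5830444B04Rik, stood at 78.6 CPM in Tg replicate 2 and at 73.9 to 74.4 CPM in the other Tg libraries. The causes were not tested.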

How the results depend on the processing

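All 5 members lay below WT and KO in Tg under every alternative that was run for them. They were chosen for this in the same libraries, so it is no independent support. None was called in KO against WT. The counts of called genes were less stable. Tg against WT called 846 genes, and 1912 with DESeq2, 358 with only both groups fitted, 20 and 32 without the libraries with Xist and Y-linked reads over 10 or 1 CPM, and 211 (without Tg replicate 1) to 1076 (without WT replicate 3) with single libraries left out. Tg against KO called 978, and 1922 with DESeq2, 364 and 84 without those libraries, and 287 (without KO replicate 2) to 1096 (without WT replicate 3). KO against WT called 4, and 99 with DESeq2, 1 with limma-voom or only both groups, 0 at the 1 CPM limit, and 1 to 4. The 5 neighbours called became 11 with DESeq2, 3 with limma-voom or the stricter filter, 2 with only both groups, 0 at either limit, and 1 to 9. The 3 list calls became 8 with DESeq2, 5 with no filter, 1 with library totals, limma-voom or only both groups, 0 at either limit, and 0 to 7; in KO against WT they were 0 in every fit. The cause was not tested; the limits of 10 and 1 CPM leave 1 WT library, which is assumed to vary like the others.

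For 2610035D17Rik limma-voom gave -8.33 against WT and -7.93 against KO. Without the libraries over 10 CPM, KO over WT turned to 0.41 for 5830444B04Rik, 0.15 for 4930481A15Rik and 0.09 for Rab6b (0.09 at 1 CPM too), and Tg over WT became -8.43 (bound, 5830444B04Rik), -2.85 (4930481A15Rik), -3.92 (Rab6b) and -1.25 (Cmah) at both limits; 4930481A15Rik against KO was -2.78 at 1 CPM. With single libraries left out, in the order 2610035D17Rik, 5830444B04Rik, 4930481A15Rik, Rab6b and Cmah, KO over WT ran from -0.59 to -0.21, -0.92 to -0.17, -0.53 to -0.19, -0.35 to -0.17 and 0.05 to 0.36. Tg over WT ran from -9.47 to -7.61, -9.16 to -8.51 (bound), -3.66 to -3.32, -4.50 to -4.06 and -2.04 to -1.73. Tg over KO ran from -9.06 to -7.20, -8.85 to -8.05 (bound), -3.28 to -2.99, -4.25 to -3.81 and -2.16 to -1.98.

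Same-numbered libraries did not deviate together (correlations of -0.208 to 0.08), and the main fit did not pair them. Such correlations cannot show whether these libraries share a batch, which the sources used here do not give. With the replicate block, 221 genes were called in Tg against WT, 303 in Tg against KO, 1 in KO against WT, 2 neighbours and 0 list genes. The bound for 5830444B04Rik was not run with DESeq2, limma-voom, other filters, both groups alone or the block.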
